A study of Homo sapiens with 24 samples.

Results

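The genes described here are 10 genes of the integrated stress response: the transcription factor ATF4, the genes DDIT3, TRIB3, CHAC1, PPP1R15A and ASNS, the serine synthesis genes PSAT1 and PHGDH, and the amino acid transporter genes SLC7A5 and SLC3A2. They were taken by gene symbol from the deposited table and their transcripts were summed per gene. All 10 were among its 22925 symbols. Cytoplasmic RNA of U2OS, a human osteosarcoma cell line, was sequenced in 24 libraries. Cells had received a control siRNA, an siRNA against the long isoform of PAN3, another against the short isoform, or both, by lipid transfection. Each of these 4 series was sampled at 0, 0.5, 1, 2, 4 and 6 h of actinomycin D, which blocks transcription, with 1 library for each series and time. PAN3 is the adaptor of a deadenylase that shortens poly(A) tails, and the design asks how its isoforms bear on the turnover of mRNA. All groups are of a single cell line, with transfection reagent and siRNA in the control too.

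In the integrated stress response, kinases that sense unfolded protein, missing amino acids, viral RNA or lack of heme phosphorylate the translation factor eIF2. Most translation then slows, while the ATF4 mRNA is translated better because of short reading frames in its leader. ATF4 protein switches on genes of amino acid uptake and synthesis and, with its target DDIT3, genes of cell death and feedback. In tumour cells the genes of amino acid uptake and synthesis also serve growth by supplying serine, asparagine and leucine.

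The unit is FPKM, fragments scaled to transcript length and to the mapped reads of a library. FPKM summed to between 324072.2 and 384287.0 per library, and 8996 to 9720 genes reached 1 FPKM. Read totals are unknown, so single values carry no counting error. PAN3 itself had values of 0 to 2.40 FPKM in control libraries, 0.38 to 1.70 in the long series, 1.76 to 4.01 in the short series and 0.41 to 2.49 in the both series. The PAN3 values of the libraries labelled as knockdowns overlapped the control values or lay above them, so each name below (long-labelled, short-labelled, both-labelled) and each direction rests on the labels alone. The table does not separate the PAN3 isoforms. VIM and CD44, mesenchymal genes, averaged 636 and 77.6 FPKM and COL1A1 averaged 46.7, while SPARC, RUNX2 and CDH11 stayed below 1 FPKM on average. COL1A1 was listed at 0 in 7 of the 24 libraries and at up to 217.18 FPKM in others. Such zeros can be failed estimates, which the marker sums by series carry too. Markers of epithelial cells, leukocytes and hepatocytes summed to at most 0.20 FPKM in any library. The 6 mesenchymal markers summed to 83.14 to 628.60 FPKM in the control series, 473.26 to 794.27 in the long-labelled, 796.76 to 1251.28 in the short-labelled and 631.96 to 1119.75 in the both-labelled series. The lowest of these sums is a control library with VIM listed at 0. Their part in the differences below was not tested. In bulk RNA, fewer cells that express a gene and less of its RNA per cell cannot be told apart.

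Of the 10 genes, 9 were among the 7860 genes tested. DDIT3 was not, because it was listed at 0 next in time to high values. Values were compared as log2(FPKM + 0.1) with the median of the tested genes subtracted in each library, so a slope or difference is relative to that median level and a fold change understates low genes. A slope of 0 is not the middle of the genes on this scale: the median slope of all 7860 genes over the 4 series was 0.037 log2 units per h, and -0.010 when the medians were not subtracted (no centring). A level difference compares 2 series at matched times, and a slope difference compares how their values changed per h. Genes were called at a Benjamini-Hochberg adjusted p under 0.05 in limma over all 7860 genes, and errors on log2 values are standard errors (SE). With no repeated time point, p-values measure the scatter of times within series that may each stem from 1 transfection. The 3 comparisons with the control share its 6 libraries.

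The promoters of 3 of the 10 genes hold the core of the element that ATF4 and its C/EBP partners bind. The letters TGATGNAA were searched on both strands of the RefSeq windows (GRCh38.p14) that run from 250 bases before to 50 bases after each gene start. Of all 35116 windows, 1270 (3.62%) hold at least 1 match. The stretches are shown because SLC3A2 and ASNS are among the genes with the largest level differences below. CHAC1 is shown because it fell fastest of the 9 tested genes. Capitals mark the match, which is on the reverse strand in CHAC1 and SLC3A2, and the coordinates are chr15:40953251-40953280 (plus strand) for CHAC1, chr7:97872458-97872487 (minus strand) for ASNS and chr11:62881725-62881748 (plus strand) for SLC3A2.
CHAC1: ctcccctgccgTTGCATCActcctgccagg
ASNS: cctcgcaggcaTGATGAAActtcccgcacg
SLC3A2: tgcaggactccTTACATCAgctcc
The match starts at position -209 from the gene start in CHAC1, at -68 in ASNS and at 37 in SLC3A2. The 10 genes have 17 windows, of which these 3 match; another window of ASNS and 2 of SLC3A2 hold none. The windows of the other 7 genes, SLC7A5 among them, hold no such letters, which says nothing of ATF4 binding elsewhere. GRCh38 is not the build of the deposited alignments, so no read position is implied.

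The 3′ untranslated ends were searched for the pentamer ATTTA, the core of AU-rich elements, because the series measures mRNA loss. Annotated ends were found for 9 of the 10 genes and for 7396 tested genes (94.1%). No end was matched for CHAC1, so it was not searched. PPP1R15A, on chromosome 19, holds 2 pentamers within 84 bases, as many as 2.34% of 171 ends of like length hold. DDIT3, on chromosome 12, holds 2 overlapping pentamers within 216 bases, as many as 11.8% of 493 ends of like length hold. Capitals mark the pentamers in these stretches, bases 14 to 43 of the PPP1R15A end and 163 to 191 of the DDIT3 end.
PPP1R15A: gcctataATTTAttaactATTTAttttttc
DDIT3: gagattgtacATTTATTTAttactgtccc
SLC7A5 also holds 2, in a far longer end of 2947 bases, where 91.5% of ends of like length hold as many, and PSAT1 holds 2 in 1007 bases, where 51.8% do. The ends of ATF4, TRIB3, ASNS, PHGDH and SLC3A2 hold none.

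The amino acid transporter genes had the largest level differences of the 9 in the short-labelled and both-labelled series. SLC7A5 encodes the light chain of the exchanger that brings leucine and other large neutral amino acids into the cell. In time order its FPKM were 1506, 1507, 1502, 1482, 1489.5 and 1654 in the control series and 1146, 1155, 1091, 1002, 943 and 1006 in the long-labelled series. In the short-labelled series they were 241, 268, 159.9, 145, 122 and 111, and in the both-labelled series 252, 258, 195, 153, 133 and 117. Every short-labelled and both-labelled library was below every long-labelled one, and every long-labelled one was below every control library. The short-labelled and both-labelled ranges overlapped. Averaged over the matched times SLC7A5 was 8.67-fold lower in the short-labelled series (-3.12 ± 0.16 log2 units, adjusted p = 8.73e-12) and 8.2-fold lower in the both-labelled series (-3.04 ± 0.16, adjusted p = 1.43e-11). In the long-labelled series it was 1.4-fold lower (-0.48 ± 0.16, adjusted p = 0.0147), a call that was lost without the control library of 6 h (-0.373, adjusted p = 0.0506). Among the 7860 genes, 0.242% had a lower estimate in the short-labelled and in the both-labelled comparison alike.

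The SLC7A5 course also differed. The control values stood within 98.4% and 110% of their 0 h value at 2 and 6 h, whereas the short-labelled values came down to 60.3% at 2 h and 46.3% at 6 h and the both-labelled values to 60.8% and 46.6%. Against the control the slope difference was -0.22 ± 0.03 log2 units per h in the short-labelled series (adjusted p = 0.000832) and -0.23 ± 0.03 in the both-labelled series (adjusted p = 0.00103). At 0 h, before actinomycin D acted, the level differences of SLC7A5 were already -2.52 and -2.48 log2 units, and at 6 h they were -3.81 and -3.80. Most of the level difference was therefore present at 0 h. The long-labelled slope difference was -0.07 ± 0.03 and was not called (95% interval -0.14 to 0.01). SLC7A5P1 and SLC7A5P2, pseudogene copies, averaged at most 2.04 and 0.42 FPKM in any series, although reads of copies may have been shared or dropped.

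SLC3A2 encodes the heavy chain that carries SLC7A5 to the cell surface. Its FPKM were 853, 902, 1043, 1055, 1133 and 1295 in the control series and 771, 839.9, 869, 903, 949 and 1017 in the long-labelled series. They were 219.7, 217, 222, 212, 204 and 199.6 in the short-labelled and 224, 217, 229.9, 208, 207 and 207 in the both-labelled series. The short-labelled and both-labelled values overlapped each other and lay far below all others, while the control and long-labelled ranges overlapped. SLC3A2 was 4.6-fold lower in the short-labelled series (-2.20 ± 0.08 log2 units, adjusted p = 2.25e-13) and 4.58-fold lower in the both-labelled series (-2.20 ± 0.08, adjusted p = 2.38e-13). The long-labelled difference of -0.18 ± 0.08 was not called (adjusted p = 0.0862), although it was below 0 at 6 of 6 times. It was called with no centring (-0.223, adjusted p = 0.0216), with the 12 libraries compared alone (-0.178, adjusted p = 0.0186) and without the control library of 0 or 0.5 h (adjusted p = 0.0255 and 0.0425). The slope of SLC3A2 over the 4 series was 0.07 ± 0.01 log2 units per h (adjusted p = 6.61e-08), above that of 64.2% of genes, and 0.025 with no centring. Its slope was lower than in the control, with a difference of -0.12 ± 0.01 in the short-labelled and -0.13 ± 0.01 in the both-labelled series (adjusted p = 0.00015 and 0.000178).

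SLC3A2 was the sum of 2 transcripts listed above 0, which the table divided differently between series. The transcript NM_001013251 had 852.56 to 1295.27 FPKM in control libraries, 631.58 to 870.23 in the long-labelled, 170.49 to 189.65 in the short-labelled and 175.59 to 229.91 in the both-labelled libraries. NM_002394 was at 0 in all control libraries and in 4 of 6 both-labelled libraries, at 127.01 to 147.12 FPKM in the long-labelled and at 29.12 to 38.55 in the short-labelled libraries. Such zeros can be failed estimates, so the sum was used, and the leading transcript alone gave the same order of the control and short-labelled series. For that transcript the control and long-labelled ranges overlapped only between 852.56 and 870.23 FPKM. The size of the long-labelled difference therefore depends on the second transcript, and the leading one was not tested alone.

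**Figure D1:**
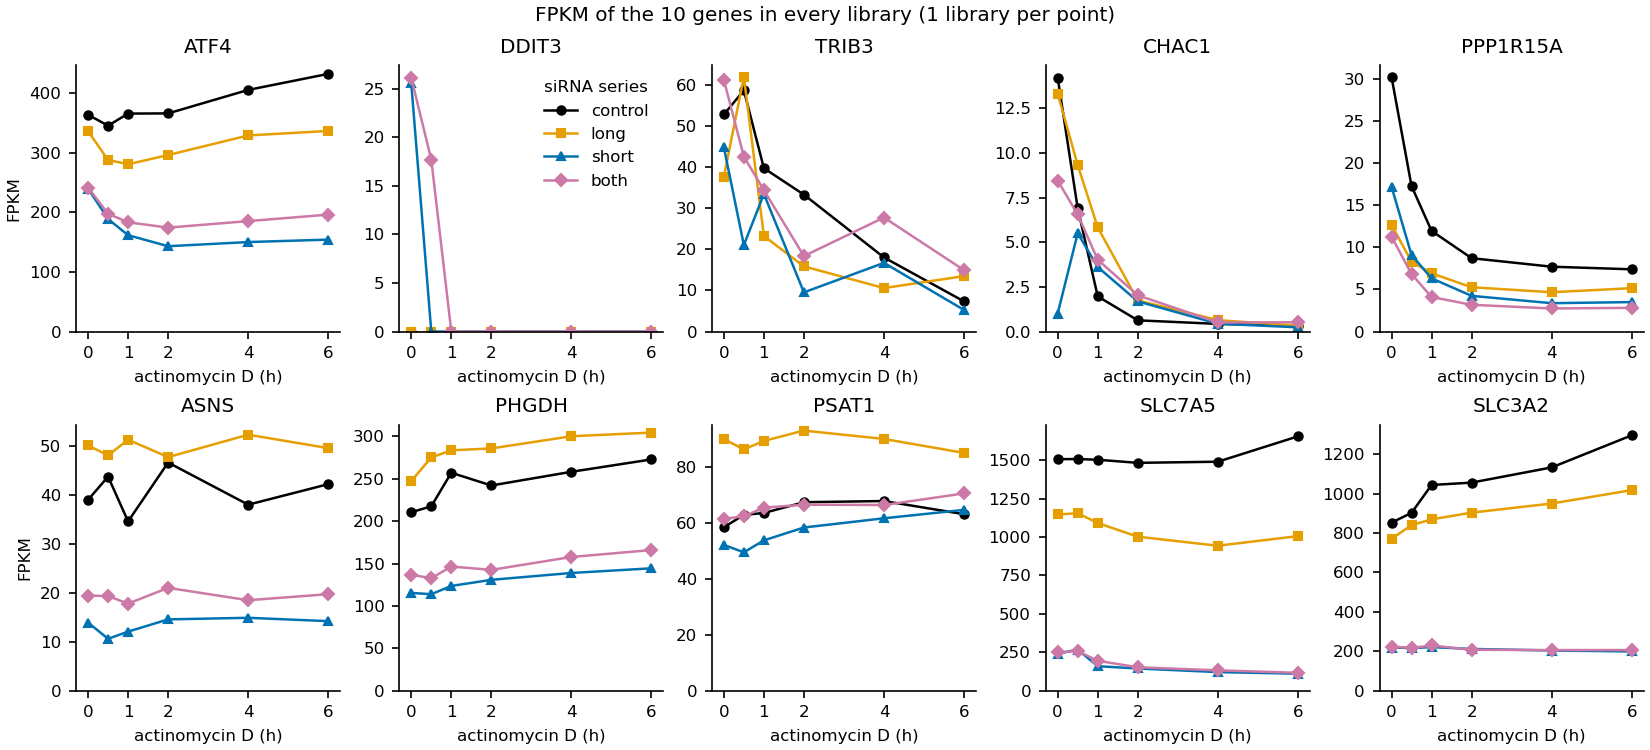
FPKM of each of the 10 genes (vertical axis, linear, from 0) against hours of actinomycin D (horizontal axis), 1 point per library, with black circles for the control, orange squares for the long-labelled, blue triangles for the short-labelled and pink diamonds for the both-labelled series. SLC7A5 and SLC3A2 lie between 111 and 268 FPKM in the short-labelled and both-labelled series against 853 FPKM or more in the control, whereas CHAC1, TRIB3 and PPP1R15A come down in every series.

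The biosynthetic enzymes were higher in the long-labelled series than in the control, and ASNS and PHGDH were lower in the others. ASNS makes asparagine from aspartate. In time order ASNS was at 39.0, 43.7, 34.6, 46.6, 38.0 and 42.2 FPKM in the control and 50.1, 48.0, 51.2, 47.7, 52.3 and 49.5 in the long-labelled series. It was at 13.9, 10.6, 12.1, 14.6, 14.9 and 14.2 FPKM in the short-labelled and 19.4, 19.3, 17.8, 21.0, 18.5 and 19.7 in the both-labelled series. The 4 ranges of this sum did not overlap, in the order long-labelled, control, both-labelled and short-labelled. ASNS was the sum of 2 transcripts listed above 0. NM_183356 was at 0 in 5 of 6 control libraries but in 1 of 6 long-labelled libraries, and such zeros can be failed estimates. The leading transcript NM_001673 alone had 34.57 to 46.58 FPKM in the control and 41.04 to 50.06 in the long-labelled series, which overlap. It was not tested alone. Against the control ASNS was 2.85-fold lower in the short-labelled series (-1.51 ± 0.07 log2 units, adjusted p = 4.46e-12), 1.99-fold lower in the both-labelled series (-0.99 ± 0.07, adjusted p = 1.55e-09) and 1.27-fold higher in the long-labelled series (0.34 ± 0.07, adjusted p = 0.000646). The both-labelled and short-labelled series were not tested against each other.

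PHGDH catalyses the entry step of serine synthesis from a glycolytic intermediate. Its FPKM were 210.5, 217, 257, 242, 258 and 273 in the control and 247, 275, 283, 286, 300.0 and 304 in the long-labelled series. They were 115, 114, 124, 131, 139 and 144 in the short-labelled and 137, 133, 146, 143, 158 and 166 in the both-labelled series. The control and long-labelled ranges overlapped, but at each time the long-labelled value was the higher; all short-labelled and both-labelled values were lower than both. PHGDH was 1.79-fold lower in the short-labelled series (-0.84 ± 0.03, adjusted p = 6.22e-13), 1.57-fold lower in the both-labelled series (-0.65 ± 0.03, adjusted p = 2.05e-11) and 1.2-fold higher in the long-labelled series (0.27 ± 0.03, adjusted p = 3.95e-06). PSAT1, the aminotransferase of the next step, stood apart from the other enzymes, at 58.4, 62.8, 63.5, 67.3, 67.8 and 63.0 FPKM in the control and 89.9, 86.2, 89.2, 92.9, 89.9 and 84.9 in the long-labelled series. In the short-labelled series it was at 52.1, 49.5, 53.7, 58.3, 61.6 and 64.6 and in the both-labelled series at 61.4, 62.3, 65.4, 66.5, 66.3 and 70.5 FPKM. Only the long-labelled range lay apart from the control. PSAT1 was 1.44-fold higher there (0.52 ± 0.05, adjusted p = 4.63e-08), while the short-labelled difference was -0.09 ± 0.05 (95% interval -0.19 to 0.01, adjusted p = 0.104) and the both-labelled difference 0.11 ± 0.05 (95% interval 0.01 to 0.21, adjusted p = 0.0573). The short-labelled PSAT1 level was called lower with no centring (-0.177, adjusted p = 0.00302), with 0 to 4 h only (-0.131, 0.011) and when the 6 h library with that label was left out (-0.132, 0.0123). The both-labelled one was called higher without any of 5 single libraries (0.107 to 0.124, adjusted p = 0.0258 to 0.0496). The long-labelled PHGDH call was lost without time as a block (adjusted p = 0.145). Over the course of actinomycin D, the slope over the 4 series was 0.10 ± 0.01 log2 units per h for PHGDH, 0.07 ± 0.01 for PSAT1 and 0.06 ± 0.01 for ASNS, above those of 75.4%, 63.9% and 60.3% of genes. With no centring these slopes were 0.050, 0.024 and 0.015, and that of ASNS was not called (adjusted p = 0.318). These genes and ATF4 and SLC7A5 have pseudogenes or related copies in the genome, and reads that fit several copies may have been split or dropped.

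The transcription factor ATF4 was lower in each siRNA series, least in the long-labelled one. Its FPKM were 364, 346, 366, 366, 406 and 433 in the control and 337, 288, 281, 296, 329 and 337 in the long-labelled series. They were 240.2, 189, 162, 143, 150.3 and 154 in the short-labelled and 242, 198, 184, 175, 186 and 196 in the both-labelled series. The 6 long-labelled values lay below the control range, and all short-labelled and both-labelled values lay lower still. The short-labelled and both-labelled ranges overlapped. At the matched times ATF4 was 2.1-fold lower in the short-labelled (-1.07 ± 0.09 log2 units, adjusted p = 1.85e-08) and 1.84-fold lower in the both-labelled series (-0.88 ± 0.09, adjusted p = 2.24e-07). The long-labelled difference of -0.24 ± 0.09 (adjusted p = 0.0378) was below 0 at 6 of 6 times, but the call was lost without any single time other than 0 h and without any of 7 single libraries, with an adjusted p of up to 0.118. It was also lost without time as a block (adjusted p = 0.134). The 7 single libraries were the control libraries of 1, 2, 4 and 6 h and the long-labelled libraries of 0, 0.5 and 1 h.

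The short-labelled ATF4 value went from 240.2 FPKM at 0 h to 143 at 2 h, which is 59.7% of the start, and the both-labelled value to 72.2%, while the control stood at 101%. After 2 h ATF4 moved by between 0.07 and 0.10 log2 units per h in all 4 series on the median-subtracted scale. The ATF4 differences from the control were already -0.48 and -0.49 log2 units at 0 h in the short-labelled and both-labelled series, and they were -1.41 and -1.12 at 6 h. The slope difference from the control was -0.14 ± 0.03 log2 units per h in the short-labelled series (adjusted p = 0.00755) and -0.09 ± 0.03 in the both-labelled series, which was not called (95% interval -0.15 to -0.03, adjusted p = 0.0734) except without the control library of 1 h or the short-labelled one of 6 h (0.0426 and 0.0474). Without the 0 h libraries the short-labelled value was -0.098 (adjusted p = 0.0534), and without time as a block -0.135 (adjusted p = 0.0541).

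DDIT3 encodes the transcription factor CHOP, an ATF4 target that acts in prolonged stress. It was listed at 25.6 FPKM in the short-labelled library of 0 h, at 26.1 in the both-labelled library of 0 h and at 17.7 in the both-labelled library of 0.5 h. In the other 21 libraries DDIT3 was listed at 0, including every control and long-labelled library. A 0 in this table can be a failed estimate, so no fold change is given and no test was made.

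The feedback and effector genes CHAC1, TRIB3 and PPP1R15A were lost fastest of the 9 tested genes under actinomycin D. CHAC1, which breaks down glutathione, was at 14.2, 6.90, 1.97, 0.63, 0.43 and 0.34 FPKM in the control and 13.3, 9.32, 5.83, 1.74, 0.64 and 0.33 in the long-labelled series. It was at 1.01, 5.50, 3.61, 1.69, 0.44 and 0.24 in the short-labelled and 8.45, 6.55, 4.02, 2.03, 0.51 and 0.52 in the both-labelled series. The 4 ranges overlapped, and the short-labelled library of 0 h stood apart with a value below those of 0.5, 1 and 2 h. CHAC1 fell at -0.67 ± 0.08 log2 units per h over the 4 series (adjusted p = 5.48e-07), and 0.0254% of the 7860 genes had a more negative estimate. With a pseudocount of 1 FPKM the slope was -0.419. No level difference of CHAC1 was called with all libraries. The short-labelled one was -0.28 ± 0.42 and became 0.372 without the 0 h libraries, and that of the long-labelled series was 0.65 ± 0.42 (95% interval -0.24 to 1.54). The long-labelled one was called without the 0 h libraries (0.784, adjusted p = 0.0137), without the control library of 0 h (0.988, 0.0471) or without the short-labelled library of 0 h (0.650, 0.0307), and the both-labelled one without the 0 h libraries (0.696, 0.0206). In the opening 2 h the control value changed by -2.07 log2 units per h, the long-labelled value by -1.37 and the both-labelled value by -0.94. The short-labelled value changed by 0.40, starting from its low 0 h library. At 2 h the control held 4.44% of its 0 h value, the long-labelled series 13.1% and the both-labelled series 24.1%. The slope differences over 6 h were nevertheless not called. They were -0.09 ± 0.20 for the long-labelled, 0.22 ± 0.20 for the short-labelled and 0.07 ± 0.20 for the both-labelled series. Their 95% intervals were -0.52 to 0.35, -0.22 to 0.66 and -0.37 to 0.51 in turn.

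PPP1R15A encodes GADD34, the subunit that directs a phosphatase to eIF2 and so ends the response. Its FPKM were 30.2, 17.3, 11.9, 8.71, 7.70 and 7.39 in the control and 12.7, 8.30, 6.92, 5.26, 4.67 and 5.15 in the long-labelled series. They were 17.2, 9.08, 6.32, 4.24, 3.37 and 3.50 in the short-labelled and 11.3, 6.83, 4.10, 3.18, 2.74 and 2.82 in the both-labelled series. The ranges overlapped over the whole course, but at every matched time each siRNA series was below the control. PPP1R15A was 2.54-fold lower in the both-labelled (-1.35 ± 0.10, adjusted p = 2.42e-09), 1.86-fold lower in the short-labelled (-0.89 ± 0.10, adjusted p = 4.63e-07) and 1.73-fold lower in the long-labelled series (-0.79 ± 0.10, adjusted p = 3.4e-06). Without time as a block the short-labelled call and the long-labelled call were lost (adjusted p = 0.0512 and 0.11). The loss had a fast and a flat phase. Between 0 and 2 h the values changed by -0.82, -0.56, -0.94 and -0.83 log2 units per h for control, long, short and both in turn, and between 2 and 6 h by -0.01, 0.03, -0.03 and -0.01. The straight-line slope of -0.22 ± 0.04 over the 4 series (adjusted p = 0.000319) therefore averages these phases.

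TRIB3, a pseudokinase that feeds back on ATF4, was at 52.8, 58.7, 39.7, 33.3, 18.0 and 7.33 FPKM in the control and 37.6, 61.9, 23.2, 15.9, 10.6 and 13.5 in the long-labelled series. It was at 44.8, 21.0, 33.5, 9.54, 16.7 and 5.25 in the short-labelled and 61.2, 42.5, 34.4, 18.4, 27.7 and 14.9 in the both-labelled series. The courses crossed several times and the ranges overlapped. TRIB3 fell at -0.32 ± 0.05 log2 units per h over the 4 series (adjusted p = 9.47e-06). Its short-labelled level was 1.55-fold lower than the control (-0.64 ± 0.27, adjusted p = 0.0481), lower at 6 of 6 times. That call was lost without the times 0, 0.5 or 2 h and without any of 16 single libraries, with adjusted p of 0.0501 to 0.225, and in 4 other fits: with no filter (0.0779), zeros kept (0.0626), the 12 libraries compared alone (0.0578) or no block of time (0.304). The single libraries were the control libraries of 0 to 4 h, the short-labelled of 0.5, 2 and 6 h, the long-labelled of 0 and 2 h and all 6 both-labelled libraries. The other level differences of TRIB3 were not called, at -0.31 ± 0.27 in the long-labelled and 0.13 ± 0.27 in the both-labelled series (95% intervals -0.88 to 0.26 and -0.44 to 0.69).

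**Figure D2:**
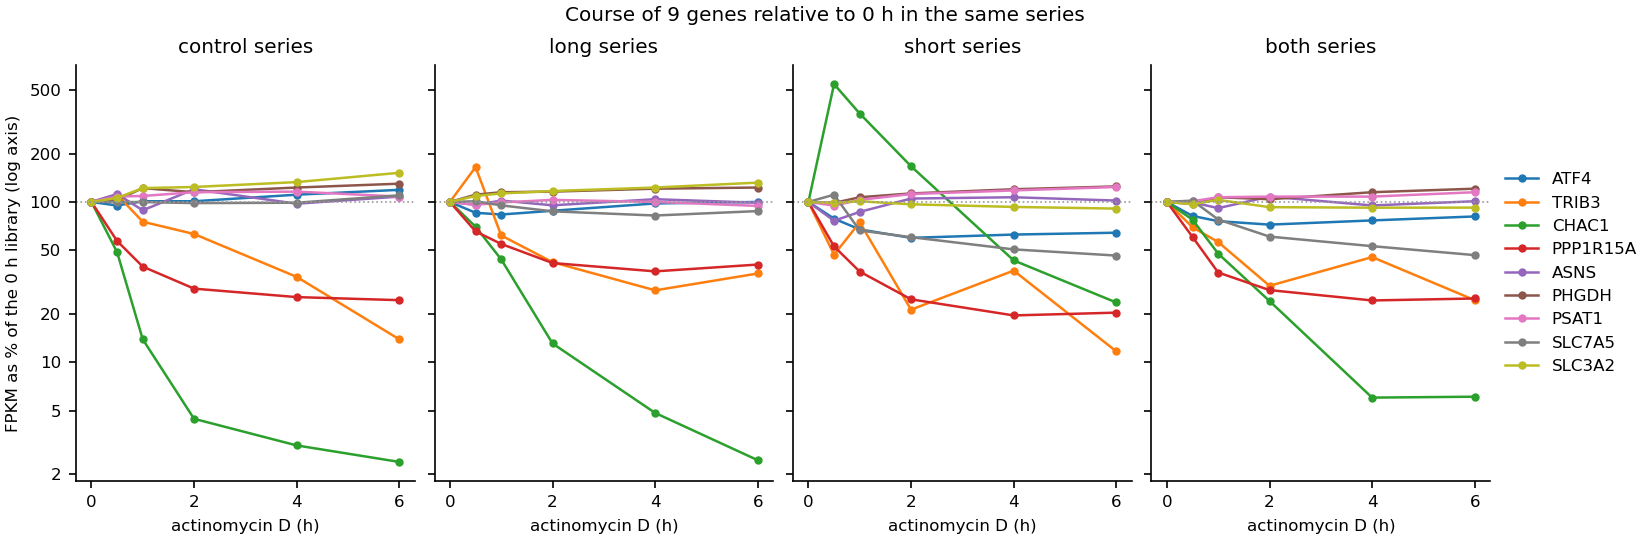
Course of the 9 tested genes in each series, as FPKM in percent of the library of 0 h of the same series (vertical axis, logarithmic) against hours of actinomycin D, 1 line per gene and 1 point per library. CHAC1 reaches 2.39% of its start at 6 h in the control series and rises above 100% in the short-labelled series from a 0 h library at 1.01 FPKM, and SLC7A5 ends at 46.3% and 46.6% in the short-labelled and both-labelled series against 110% in the control.

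Counted together, the 9 tested genes were mostly lower in the short-labelled and both-labelled series. In the short-labelled series 7 of 9 were lower than the control and 0 higher, where 30.7% of all 7860 genes were called lower and 32.7% higher. CHAC1 and PSAT1 were not called. The median difference of the 9 was -0.894 log2 units, against 0.030 over all genes. In the both-labelled series 6 of 9 were lower and 0 higher, against 29% and 33% of all genes, with a median of -0.883 against 0.034; TRIB3, CHAC1 and PSAT1 were not called.

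The 9 genes divided between the directions in the long-labelled series. ASNS, PSAT1 and PHGDH were higher and ATF4, PPP1R15A and SLC7A5 lower, so 3 of 9 were called in each direction where 27.1% of all genes were called higher and 24.1% lower. These shares are close to the background. The count fell to 3 when time was not a term of the fit.

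A direct comparison set the short-labelled against the long-labelled series. Here 6 of 9 genes were lower in the short-labelled series and 0 higher, against 32.3% and 31.7% of all genes. SLC7A5 was 6.2-fold lower (-2.63 ± 0.16 log2 units, adjusted p = 8.64e-11), SLC3A2 4.07-fold (-2.02 ± 0.08, adjusted p = 7.38e-13), ASNS 3.62-fold (-1.86 ± 0.07, adjusted p = 3e-13) and PHGDH 2.15-fold (-1.11 ± 0.03, adjusted p = 1.6e-14). ATF4 was 1.77-fold and PSAT1 1.53-fold lower. All 6 were lower at 6 of 6 times. PPP1R15A differed by -0.10 ± 0.10 (95% interval -0.32 to 0.11) and CHAC1 by -0.93 ± 0.42 (adjusted p = 0.0627), and neither was called with all libraries. CHAC1 was called lower without 2 h or without any of 4 single libraries (adjusted p = 0.0328 to 0.0498).

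**Figure D3:**
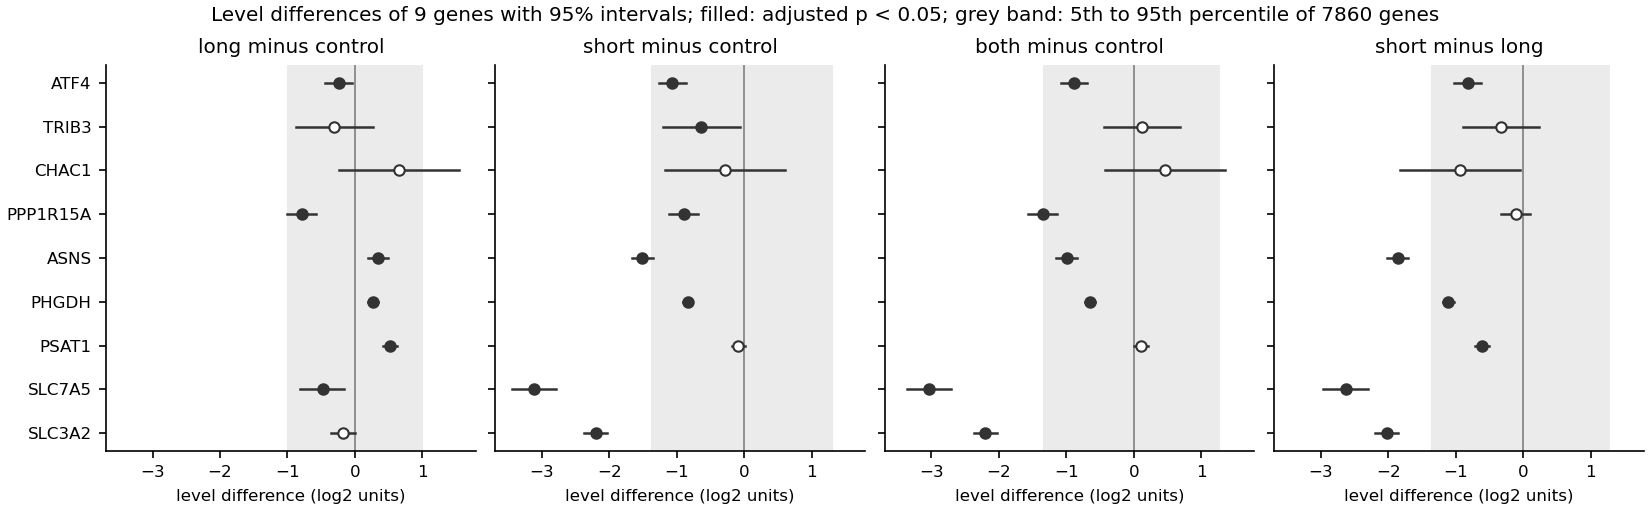
Level differences of the 9 tested genes in log2 units at matched times (horizontal axis) in 4 comparisons (panels), with points for the limma estimates, lines for 95% intervals, filled points for an adjusted p under 0.05 and a grey band for the 5th to 95th percentile of the 7860 genes. SLC7A5 at -3.12 and SLC3A2 at -2.20 in the short-labelled comparison lie outside the band, and in the long-labelled comparison all 9 estimates lie within it. ASNS at -1.51 lies outside as well, as do SLC7A5, SLC3A2 and PPP1R15A in the both-labelled comparison and SLC7A5, SLC3A2 and ASNS in the direct one.

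Under actinomycin D all 9 genes had a called mean slope over the 4 series on the median-subtracted scale, 5 of them above 0 and 4 below, where 42.7% of all genes were called higher and 24.5% lower. CHAC1, TRIB3, PPP1R15A and SLC7A5 had slopes below 0 and PHGDH, PSAT1, SLC3A2, ASNS and ATF4 above 0. The slope of SLC7A5 was -0.06 ± 0.02 log2 units per h and averages series that differ. That of ATF4 was 0.04 ± 0.01 (adjusted p = 0.0179) and -0.007 with no centring, above that of 51.4% of genes. The call was lost under a filter of 5 FPKM on the mean (0.019, adjusted p = 0.236). Without the 6 h libraries it was 0.017 (adjusted p = 0.539), and the call was also lost without the times 0.5, 1 or 4 h (adjusted p = 0.0795, 0.0516 and 0.0538) and without the short-labelled or both-labelled library of 6 h (0.199 and 0.123).

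Differences in slope were fewer. In the short-labelled series 3 of 9 genes (ATF4, SLC7A5 and SLC3A2) had a lower slope than the control and 0 a higher one, against 4.64% and 4.21% of all genes. With the 12 libraries of those 2 series alone none of the 3 was called, at adjusted p of 0.0552 for SLC3A2, 0.0853 for SLC7A5 and 0.156 for ATF4. In the both-labelled series 2 of 9 (SLC7A5 and SLC3A2) had a lower slope and 0 a higher one, against 3.22% and 3.83%. In the long-labelled series 0 of 9 were called, where 0.585% of all genes were called lower and 1.25% higher; at an unadjusted p under 0.05 there were 2, PPP1R15A at 0.09 ± 0.03 and SLC3A2 at -0.04 ± 0.01 log2 units per h. Between the short-labelled and long-labelled series 4 of 9 were lower and 1 higher, against 4.07% and 2.23%. PSAT1 was the higher one (0.07 ± 0.02), and SLC7A5 (-0.16 ± 0.03), PPP1R15A (-0.14 ± 0.03), ATF4 (-0.10 ± 0.03) and SLC3A2 (-0.08 ± 0.01) were lower. The call of PPP1R15A was lost without the long-labelled or the short-labelled library of 0 h (adjusted p = 0.0607 and 0.0648), and that of SLC7A5 without the long-labelled library of 6 h (0.093). That of PSAT1 was lost without the long-labelled library of 0 h (0.0599), that of 6 h (0.269) or the short-labelled library of 6 h (0.28). That of ATF4 was lost without any of 15 single libraries (adjusted p = 0.0514 to 0.125). Leaving out a whole time lost more calls. PPP1R15A lost its call without 0, 0.5, 4 or 6 h (adjusted p up to 0.134) and ATF4 without 0, 0.5, 1 or 4 h (up to 0.164). SLC7A5 lost it without 0, 4 or 6 h (up to 0.0993) and PSAT1 without 0.5, 2 or 6 h (up to 0.365). The SLC3A2 call was kept without any single time or library. With the 12 libraries of these 2 series alone none of the 5 was called, at adjusted p of 0.0731 for SLC3A2, 0.0955 for PSAT1, 0.143 for SLC7A5, 0.17 for ATF4 and 0.181 for PPP1R15A.

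**Figure D4:**
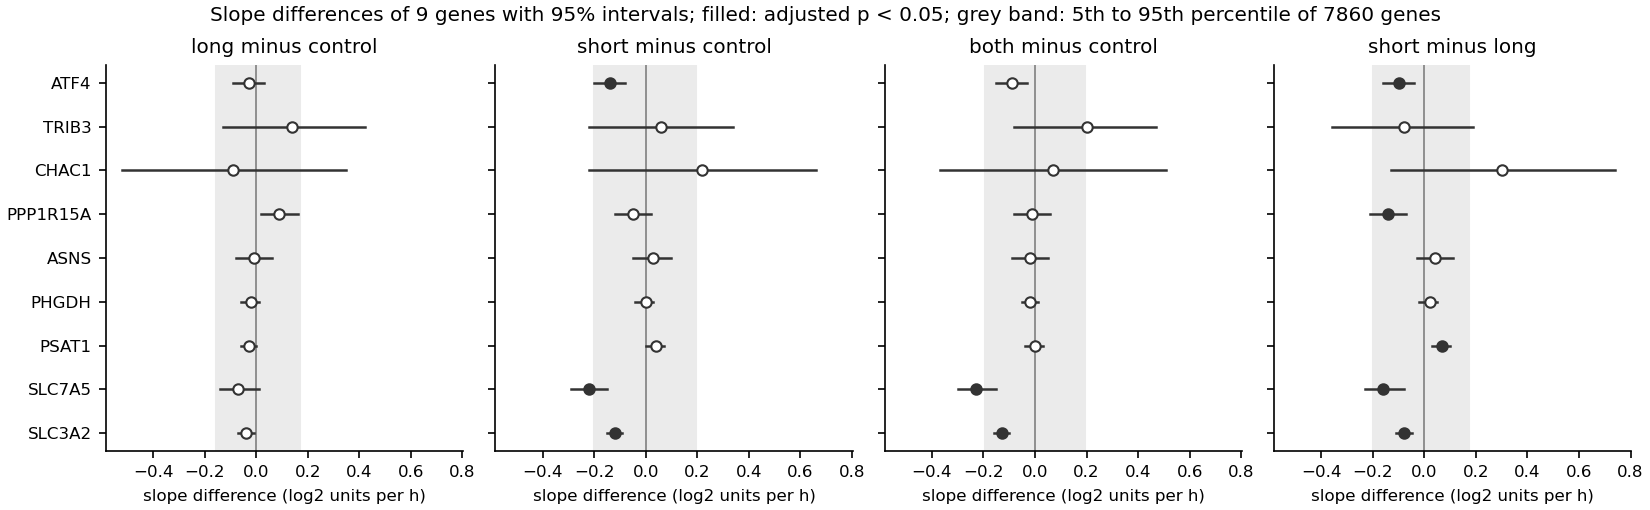
Slope differences of the 9 tested genes in log2 units per h of actinomycin D (horizontal axis) in 4 comparisons (panels), with points for the limma estimates, lines for 95% intervals, filled points for an adjusted p under 0.05 and a grey band for the 5th to 95th percentile of the 7860 genes. SLC7A5 at -0.22 and -0.23 lies below the band in the short-labelled and both-labelled comparisons. CHAC1 lies above it in the short-labelled (0.218) and the direct comparison (0.304), and TRIB3 barely so in the both-labelled one (0.197 against 0.195). The intervals of CHAC1 and TRIB3 span 0 in all 4 panels.

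Other genes of the response were taken from 5 lists of 51 genes, of which 41 were tested. In the short-labelled series 22 of 41 were lower and 9 higher than the control, with a median of -0.32 log2 units. In the both-labelled series 18 were lower and 9 higher (median -0.21), and in the long-labelled series 12 were lower and 13 higher (median 0.03). Of all 7860 genes, 30.7% were called lower and 32.7% higher with the short label, and 29% and 33% with both labels. With the long label the shares were 24.1% lower and 27.1% higher. Slope calls among the 41 were few, as among all genes. They were 1 higher and 0 lower in the long-labelled series, where 1.25% of all genes were called higher and 0.585% lower. With the short label 3 were higher and 1 lower, against 4.21% and 4.64%. With both labels 3 were higher and 0 lower, against 3.83% and 3.22%.

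Among the partner transcription factors, 4 of 5 tested genes were lower in the short-labelled series and 0 higher. With this label 30.7% of all genes were called lower and 32.7% higher, against 29% and 33% with both labels. With the long label 24.1% were called lower and 27.1% higher. ATF3, a stress-induced repressor, was 2.89-fold lower (-1.53 ± 0.14) and NUPR1, a small chromatin protein, 2.81-fold (-1.49 ± 0.14). In the both-labelled series 2 of 5 were lower, with ATF3 at -1.48 ± 0.14 and NUPR1 at -1.20 ± 0.14. In the long-labelled series 3 were lower, ATF3, NUPR1 and ATF5 at -1.01 ± 0.14, -0.94 ± 0.14 and -0.99 ± 0.11, and CEBPG was higher at 0.83 ± 0.12. CEBPG, a partner with which ATF4 binds DNA, also had a higher slope than the control in all 3 series, by 0.16 ± 0.03, 0.14 ± 0.03 and 0.15 ± 0.03 log2 units per h for the long, short and both labels in turn (adjusted p = 0.0342, 0.0197 and 0.0193). With the 12 libraries compared alone, 0 of all genes were called for the long-labelled slope difference, so that call of CEBPG was lost. The other values for these lists are given with all 24 libraries.

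The further stress targets went both ways. In the short-labelled series 6 of 11 were lower and 5 higher, where 30.7% of all genes were called lower and 32.7% higher. GDF15, a secreted stress cytokine, averaged 273 FPKM in the control, 68.1 in the long-labelled, 55.2 in the short-labelled and 71.5 in the both-labelled series, and was lower in each (-2.08 ± 0.13, -2.22 ± 0.13 and -1.88 ± 0.13 log2 units). ERO1L, an oxidase of the endoplasmic reticulum, went the other way. It averaged 6.13 FPKM in the control, 16.7 in the long-labelled, 34.3 in the short-labelled and 36.5 in the both-labelled series, and was 2.78-fold, 5.84-fold and 6.16-fold higher in these (adjusted p = 6.91e-14, 1.48e-17 and 1.54e-17). SESN2, an inhibitor of growth signalling when leucine is short, was higher as well, by 1.56 ± 0.27, 2.60 ± 0.27 and 2.83 ± 0.27 log2 units, and its slope was higher by 0.37 ± 0.07 in the short-labelled and 0.39 ± 0.07 in the both-labelled series. STC2, a secreted glycoprotein, was 3.42-fold lower in the both-labelled series (-1.77 ± 0.19). Counts for this list were 5 lower and 5 higher of 11 in the both-labelled series and 3 lower and 6 higher in the long-labelled series. The shares of all genes were 29% lower and 33% higher with both labels, and 24.1% and 27.1% with the long label.

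Of 8 enzymes of amino acid and one-carbon metabolism, 4 were lower and 0 higher in the short-labelled and in the both-labelled series. Among all genes 30.7% were called lower and 32.7% higher with the short label, and 29% and 33% with both labels. The other 4 enzymes (CTH, ALDH1L2, MTHFD1L and MTHFD2) were not called and had estimates above 0 in both. CBS, which joins homocysteine and serine, differed by -0.81 ± 0.08 and -0.40 ± 0.08 log2 units, and GOT1, the cytosolic aspartate aminotransferase, by -0.54 ± 0.04 and -0.42 ± 0.04. GPT2, the mitochondrial alanine aminotransferase, averaged 9.26 FPKM in control libraries, 4.32 in short-labelled and 5.43 in both-labelled ones. In the long-labelled series 3 of 8 were higher and 0 lower, against 27.1% and 24.1% of all genes. Among the 3 were CBS (0.57 ± 0.08) and ALDH18A1, an enzyme of proline synthesis (0.54 ± 0.08). The slope of ALDH18A1 was lower in the short-labelled series, with a difference of -0.12 ± 0.03 log2 units per h. PSPH, which completes serine synthesis, and SHMT2 were not tested because of dashes or zeros in the table. Their series means were above the filter of 1 FPKM, at 9.2 to 17.5 for PSPH and 61.9 to 90.6 for SHMT2.

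Of 6 other amino acid transporters, 3 were lower and 2 higher in the short-labelled and in the both-labelled series. The shares of all genes were 30.7% lower and 32.7% higher with the short label, and 29% and 33% with both labels. SLC1A4, which carries alanine and serine, was higher in both (0.73 ± 0.06 and 0.81 ± 0.06 log2 units), SLC6A9, a glycine transporter, was lower in both (-1.04 ± 0.14 and -0.53 ± 0.14), and SLC38A2, which takes up glutamine and alanine, was lower (-0.53 ± 0.09 and -0.39 ± 0.09). SLC7A1 was also called in the both-labelled series, where it averaged 6.35 FPKM against 15.8 in the control. Its means were 10.3 and 10.6 FPKM in the long-labelled and short-labelled series. None of the 6 came near the differences of SLC7A5 and SLC3A2. With the long label 3 of 6 were lower and 1, SLC6A9, higher (0.49 ± 0.14), against 24.1% and 27.1% of all genes.

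Upstream in the pathway, 5 of 11 genes of the eIF2 kinases, eIF2, its exchange factor eIF2B and the constitutive phosphatase subunit were lower and 2 higher in the short-labelled series. With this label 30.7% of all genes were called lower and 32.7% higher. EIF2AK3, the kinase that senses unfolded protein, was 2.54-fold lower (-1.34 ± 0.16), EIF2B1 was 1.72-fold lower (-0.78 ± 0.03) and EIF2S1, which carries the phosphorylated site, 1.58-fold higher (0.66 ± 0.07). In the both-labelled series 4 of 11 were lower and 2 higher, against 29% and 33% of all genes. EIF2AK3 was at -1.07 ± 0.16 and EIF2S1 at 0.44 ± 0.07 there. In the long-labelled series 3 were lower and 2 higher, against 24.1% and 27.1% of all genes. EIF2B1 was among the higher ones at 0.58 ± 0.03. EIF2B4 had a higher slope than the control by 0.09 ± 0.02 log2 units per h in the short-labelled and 0.09 ± 0.02 in the both-labelled series.

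Across the 24 libraries the transporter pair varied together, with a Pearson r of 0.97 between SLC7A5 and SLC3A2, and ATF4 followed them with 0.92 and 0.93. ASNS and PHGDH had an r of 0.94, while PSAT1 had 0.77 with PHGDH and 0.29 with SLC7A5. TRIB3 and ATF4 had an r of -0.00 and CHAC1 and ATF4 of -0.15. The libraries share their series and times, so these are descriptions. Among non-members, the gene most like SLC7A5 was FAM69A (r = 0.99), with a mean of 3.9 FPKM over control and 0.614 over short-labelled libraries. FKBP9 was most like SLC3A2 (0.99), NCDN most like PHGDH (0.99), SOHLH2 most like PSAT1 (0.98) and C19orf42 most like ATF4 (0.96). MOCS3 was most like CHAC1 (0.96), CYR61 most like PPP1R15A (0.94) and BRAP most like TRIB3 (0.86). The mean course of the 9 genes was closest to CENPA and TP53BP1 (both 0.98) and to C6orf176, FAM69A and EBAG9 (each 0.97).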

How the data were processed

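Per the labels' protocols, cells were transfected, cytoplasmic RNA was purified on kit columns and Illumina libraries were prepared in the usual way. Alignment was with TopHat 1.3.3 to hg19, per the submitters' processing notes. A single table of FPKM per RefSeq transcript was deposited by the authors, and how the FPKM were made is not given in the sources used here. Such values show relative levels within a library, no spike-in is named in the labels, and read totals cannot be recovered.

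Transcripts were summed per symbol, and the 154 without a symbol (0.014% of FPKM) were left out. A mean of 1 FPKM or more was reached by 9932 genes. Of these, 498 were dropped for a dash in place of a value and 1574 for a 0 adjacent in time to 1 FPKM or more within a series, which left 7860. Values were taken as log2(FPKM + 0.1) less the library median. Models were fitted in limma 3.58.1 (R 4.3.3) with a mean-variance trend to all 24 libraries. Mean slopes came from 1 straight line per series, slope differences from a factor of time with a line in hours per series, and level differences from factors of time and series. The fits were also run on simulated data with independent noise in each library. Those data hold no transfection effect shared by a whole series, so they cannot show how the p-values behave under one. A sign-flip test planned for DDIT3 was not made, because its values are mostly listed zeros.

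All 10 genes, PAN3 and the genes of 5 pathway lists were named by symbol, with at most 4 called genes per list and comparison by smallest p. For each tested gene the non-member with the highest Pearson r is named, with the 5 non-members closest to the mean course. A gene that this rule names is not reported here. The genes, lists and searches were chosen with earlier results of these data known. The search of the 3′ ends used GENCODE v29, and its pentamer was chosen after the data had been seen. Alternatives were another pseudocount, other filters, no centring, zeros kept, fewer libraries or times, no time term, and fits without each time or library in turn.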

Additional observations from a re-analysis of the deposited data

Results flagged for a closer look

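The slope under actinomycin D differed between series in 10 cases by the limma test of the difference itself. Against the control, the short-labelled slope was lower for ATF4 (-0.14 log2 units per h), SLC7A5 (-0.22) and SLC3A2 (-0.12), and the both-labelled slope for SLC7A5 (-0.23) and SLC3A2 (-0.13). Between the short-labelled and long-labelled series, ATF4 (-0.10), PPP1R15A (-0.14), SLC7A5 (-0.16) and SLC3A2 (-0.08) were lower and PSAT1 (0.07) was higher. With only the 12 libraries of the series compared, 8 of the 10 were no longer called, while SLC7A5 and SLC3A2 in the both-labelled series were (adjusted p = 0.0458 and 0.0497). In 36 groups of 6 libraries (9 genes in 4 series), 0 libraries stood far enough from the line of their series to be marked as an outlier by Dixon's criterion at 95%. Each line was fitted to the same 6 libraries, so a library that pulls its line can pass unmarked. The short-labelled CHAC1 library of 0 h, at 1.01 FPKM against 5.50 at 0.5 h, was not marked.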

How the results depend on the processing

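Of the 621 values for single genes and settings other than leaving out a time or library, 572 kept their direction and side of the threshold. The number of the 9 genes called for the slope difference between the short-labelled series and the control was 3 and became 0 with only the 12 libraries compared. That between the short-labelled and long-labelled series was 5 and became 0 with only those 12 libraries, 2 with no filter on the mean, 2 with 0 to 4 h only and 2 without time as a block. That for the level difference between the long-labelled series and the control was 6 and became 3 without time as a block.

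Leaving out 1 time or library gave 8 to 9 called genes for the mean slope. For slope differences it gave 0 in each case for the long-labelled, 2 to 3 for the short-labelled and 2 to 3 for the both-labelled series against the control, and 2 to 5 between the short-labelled and long-labelled series. For level differences it gave 4 to 8, 6 to 8 and 6 to 7 against the control and 6 to 7 between those series.

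Directions reversed only for values that were not called, except ATF4, whose called mean slope became -0.007 with no centring. With 0 to 4 h only, the long-labelled slope difference became -0.145 for TRIB3, 0.078 for CHAC1 and 0.016 for ASNS, that of TRIB3 between the short-labelled and long-labelled series 0.204, and its both-labelled level difference -0.057. With no centring the slope difference became 0.004 for PHGDH (short-labelled) and 0.004 for PPP1R15A and 0.013 for PSAT1 (both-labelled). PPP1R15A became 0.014 with a pseudocount of 1. With a mean of at least 5 FPKM, PHGDH became 0.000 and PSAT1 0.003, and PSAT1 became 0.000 with no filter on the mean.

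When 1 time or library was left out, sign changes gave these ranges. The long-labelled slope difference ran from -0.072 to 0.007 for ATF4, -0.145 to 0.231 for TRIB3, -0.285 to 0.128 for CHAC1 and -0.030 to 0.016 for ASNS. The short-labelled one ran from -0.143 to 0.592 for CHAC1, -0.063 to 0.182 for TRIB3, -0.014 to 0.006 for PHGDH and -0.005 to 0.061 for ASNS. The both-labelled one ran from -0.128 to 0.286 for CHAC1, -0.040 to 0.011 for PSAT1 and -0.034 to 0.000 for PPP1R15A. TRIB3 ran from -0.202 to 0.204 between the short-labelled and long-labelled series. The level difference of CHAC1 (short-labelled) ran from -0.617 to 0.372 and that of TRIB3 (both-labelled) from -0.057 to 0.305.

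Of all genes, slope calls for the long-labelled series were 144 and became 65 with no filter, 7 with 0 to 4 h, 54 without time as a block and 0 with the compared libraries alone. For the short-labelled series 696 became 54 with the compared libraries and 280 with 0 to 4 h, for the both-labelled series 554 became 54, 181 and, without time as a block, 346, and between the short-labelled and long-labelled series 495 became 92, 160, 297 and, with no filter, 328. Level calls for the long-labelled series went from 4023 to 2551 without time as a block. With no filter, 5285 mean slopes became 11187, and level calls of 4988 and 5027 became 7924 and 7857. Without centring, higher calls were 41.9% of the mean slopes called, against 63.5%. ASNS and SLC7A5 lost their mean slope call with no centring (adjusted p = 0.318) and no filter (0.6) in turn. The cause of these changes was not tested. The libraries of a time were paired across series by the block of time.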
